A study of Mus musculus with 9 samples.

Results

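The 36 genes described here mark the cells of the blood vessel wall in the brain: 24 genes of endothelial cells, 6 genes listed for pericytes and 6 genes of vascular smooth muscle. They were taken by gene name from a count table of 54532 genes, and each name matched 1 gene. RNA came from the hypothalamus of wild type male ICR mice, an outbred stock, on postnatal day 21. HA pups had dams on a high-fat high-sucrose (HFHS) diet with 45% of its energy as fat, and received 4-PBA every day on postnatal days 4 to 16. HP pups had dams on the same HFHS diet and received PBS on those days. LP pups had dams on a low-fat diet (LFD) with 10% of its energy as fat, and received PBS. Each group had 3 libraries. Dams were put on their diet at 5 weeks of age, 5 weeks ahead of mating, and ate it until weaning, with litters set to 10 pups. HA and HP thus differ in the injected compound, HP and LP in the maternal diet, and HA and LP in both. No 4-PBA group from dams on the low-fat diet was analysed here, and 4-PBA is known both as a chemical chaperone and as an inhibitor of histone deacetylases. Whether litter mates are among the pups of a group is not in the labels. The title codes, whose meaning is not given, were Lg42, Lg63 and Lg63 for LP replicates 1 to 3. They were Hg43, Hg43 and Hg13 for HP and likewise for HA. Whether libraries that share a code are independent is not known. The p-values below therefore reflect only how these libraries vary, and some of that variation may be technical.

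Endothelial cells of most brain capillaries are sealed by tight junctions, carry out little transcytosis and move nutrients through dedicated transporters, which together form the blood-brain barrier. Pericytes sit on these capillaries within the basement membrane, and smooth muscle cells wrap arterioles and arteries, in the tissue and on the brain surface. In the hypothalamus the barrier is not uniform, since the median eminence, at the base of the third ventricle, has fenestrated capillaries through which hormones and blood-borne signals pass.

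Total counts lay between 18226924 and 21823961 per library. Levels between genes were compared on the deposited FPKM scale, which divides by gene length. By mean FPKM over the 9 libraries the highest of the 36 genes were Itm2a at 45.3, Cldn5 at 40.2 and Vtn at 33.9. The lowest were Emcn at 1.19, Cnn1 at 0.369 and Tagln at 0.136. Endothelial and pericyte markers were present in every group, with Cldn5 at least 32.3 and Rgs5 at least 22.2 FPKM in each library. Of the smooth muscle genes Myl9 at 13.9 and Acta2 at 11.6 mean FPKM were the highest. Cspg5 carries a pericyte label in the list, but it encodes neuroglycan C, a proteoglycan known from neurons and glia, whereas the pericyte proteoglycan NG2 is encoded by Cspg4. Cspg5 is therefore described apart from the 5 other pericyte genes below. The counts and pericyte medians include it, and the medians of each comparison are also given without it.

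HA replicate 3 and LP replicate 3 stood apart from the other 7 libraries in genes of tissue around the vessels. The summed level of 14 meningeal fibroblast markers, in CPM (counts scaled for library size), was 240, 261 and 1697 in HA replicates 1 to 3, 236, 259 and 344 in HP, and 231, 255 and 944 in LP. Col1a2, a collagen gene on that list, stood at 272 CPM in HA replicate 3 and 143 CPM in LP replicate 3, and at 23.2 to 42.4 CPM in the other libraries. For 6 perivascular macrophage markers the sums were 13.5, 14.1 and 71.7 CPM in HA, 16.7, 17.1 and 27.5 CPM in HP, and 12.7, 15.1 and 49.5 CPM in LP. HP replicate 3 was the highest of the HP libraries on both sums. Red blood cell markers followed another order, since their sum over 7 genes was 91.5 CPM in HA replicate 3, 56.3 CPM in HP replicate 1, 70.3 and 66.6 CPM in LP replicates 2 and 3, and at most 24.9 CPM in the other libraries. No marker of these 3 lists was at 0 in all 9 libraries. The sum of 7 astrocyte markers varied little by comparison, between 4277.6 and 4961.2 CPM. LP replicates 1 and 2 stood apart in another way, since 8 striatal markers summed to 394 and 520 CPM there and to 227 to 258 CPM in the other 7 libraries. Ppp1r1b, a striatal phosphoprotein gene named here after its values were seen, stood at 52.4 and 82.0 CPM in LP replicates 1 and 2, and at 8.35 to 16.1 CPM in the others. All 8 striatal markers had lower estimates in HA and in HP than in LP. With all 9 libraries, 0 of the 8 were called in either contrast with LP (edgeR, Benjamini-Hochberg). Without LP replicate 3 and HA replicate 3, the LP group held only the 2 libraries just picked for their high striatal sums. By the same test, 5 markers were then called lower in HA than in LP and 4 in HP than in LP. Of all genes tested, 0.118% and 0.164% were. Since the libraries kept were those already seen to be high, these calls add no support. The part of these differences between libraries in the contrasts with LP was not tested. The counts and medians over the vessel genes are therefore also given without HA replicate 3, or without it and LP replicate 3, where that changes them.

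**Figure D1:**
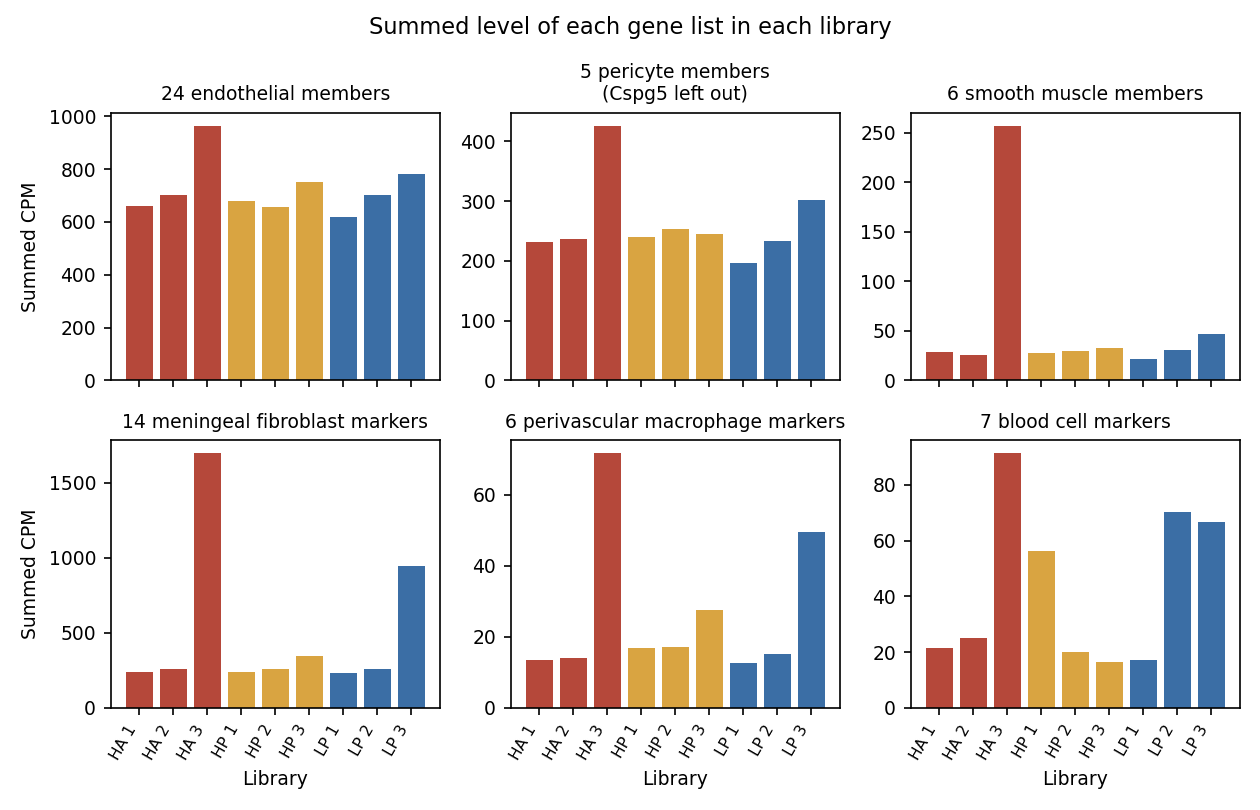
Summed CPM (y axis) of 3 vascular gene classes and 3 marker lists of neighbouring cells in each of the 9 libraries (x axis, 1 bar per library, HA red, HP orange, LP blue). HA replicate 3 is the tallest bar in each panel, with 257 CPM for smooth muscle genes against at most 46.6 CPM elsewhere, and LP replicate 3 is next for meningeal fibroblast markers.

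None of the 35 vascular genes that passed the count filter was called in any of the 3 comparisons by edgeR's quasi-likelihood test with Benjamini-Hochberg adjustment at 0.05, and none was called by DESeq2 or limma-voom. Over all 17546 genes tested the same edgeR test called 0.0114% in HA against HP, 0.0114% in HP against LP and 0.0% in HA against LP. A fit of the HA and LP libraries alone called 1 gene in HA against LP, and 2 with replicate numbers added as a block, and no gene of the vascular list was among them. The remaining gene, Tagln, was too low to be tested.

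HA against HP asks how the vessel genes of pups from HFHS dams differ with 4-PBA. The estimate was higher in HA for 30 of the 35 genes and lower for 5, with a median log2 fold change of 0.246 for endothelial, 0.147 for pericyte and 1.64 for smooth muscle genes, against 0.003 over all genes tested. Without HA replicate 3 the estimate was higher for 21 and lower for 14. The medians were then 0.047, 0.106 and -0.185 in the same order. In that setting 2 meningeal fibroblast markers had a higher and 12 a lower estimate in HA, with a median of -0.384. Leaving Cspg5 out, the pericyte median was 0.193 with all libraries and 0.101 without HA replicate 3. An unadjusted p under 0.05 was reached by 9 of the 35 genes in this comparison, where 5.42% of all genes tested reached it. Without HA replicate 3 this count was 7, and the share over all genes was 5.26%. The vessel genes share the same 9 libraries, so these are not independent observations.

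HP against LP asks the same of the maternal diet under PBS. Here 15 of the 35 genes had a higher and 20 a lower estimate in HP, and the medians were -0.009 for endothelial, 0.014 for pericyte and -0.223 for smooth muscle genes, against -0.002 over all genes tested. Without LP replicate 3 and HA replicate 3 there were 21 higher and 13 lower of 34 genes. The medians were then 0.019, 0.131 and 0.166 in the same order. HP replicate 3 was kept in that setting. There 13 meningeal fibroblast markers had a higher and 1 a lower estimate in HP, with a median of 0.474. For perivascular macrophage markers these were 5, 1 and 0.472. The part of these markers in the vessel medians was not tested. Leaving Cspg5 out, the pericyte median was 0.142 with all libraries and 0.138 without both. An unadjusted p under 0.05 was reached by 1 of the 35 genes, Rgs5, where 6.12% of all genes tested reached it. It was reached without HA replicate 3 by 3 of 35 genes, where 7.1% of all genes did so, and without both libraries by 6 of 34, where 7.49% did so.

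HA against LP sets both differences against the low-fat group. Estimates were higher in HA for 30 of the 35 genes and lower for 5, without HA replicate 3 higher for 18 and lower for 17, and without that library and LP replicate 3 higher for 24 and lower for 10 of 34. The medians were 0.217 for endothelial, 0.283 for pericyte and 1.781 for smooth muscle genes, against 0.006 over all genes tested. Without HA replicate 3 they were 0.037, 0.025 and -0.372. Without that library and LP replicate 3 they were 0.121, 0.211 and 0.032. In these settings the median of the meningeal fibroblast markers was -1.248 and 0.127, in that order. Leaving Cspg5 out, the pericyte median was 0.335 with all libraries, 0.056 without HA replicate 3 and 0.224 without both. An unadjusted p under 0.05 was reached by 9 of the 35 genes and, without HA replicate 3, by 6, where 6.51% and 5.36% of all genes tested reached it. Comparisons with HP and with LP share the HA libraries. The title codes of the libraries differ between the diets, so a contrast with LP cannot tell diet from code.

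Groups of 3 libraries separated without overlap for few of these genes. In HA against HP, 6 genes lay higher in every HA library than in any HP library, namely Cldn5, Pecam1, Tie1, Sox18, Plvap and Pdgfrb, where 5.92% of all genes tested did so. Mfsd2a alone lay lower without overlap, where 5.89% of all genes tested did so. In HP against LP, Abcc9 and Notch3 lay higher without overlap (5.93% of all genes tested) and Cnn1 lower (5.83%). In HA against LP, Pecam1, Erg, Egfl7, Plvap, Abcc9 and Notch3 lay higher without overlap (5.4% of all genes tested) and Mfsd2a lower (5.51%). Shares of 6 in 35 lie above these backgrounds and shares of 1 or 2 in 35 lie near or below them. With the HA group reduced to replicates 1 and 2, 7 genes lay higher and 7 lower than HP, where 11.4% and 12.2% of all genes tested did so, and 6 lay higher and 4 lower than LP, where 9.88% and 10.3% did so. The 7 genes lower than HP were Flt1, Mfsd2a, Abcg2, Ly6c1, Vwf, Rgs5 and Cnn1. In 6 of them, all but Mfsd2a, HA replicate 3 was what broke the separation. It lay above every HP library for Flt1, Abcg2, Vwf and Cnn1, and within the HP range for Ly6c1 and Rgs5.

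**Figure D2:**
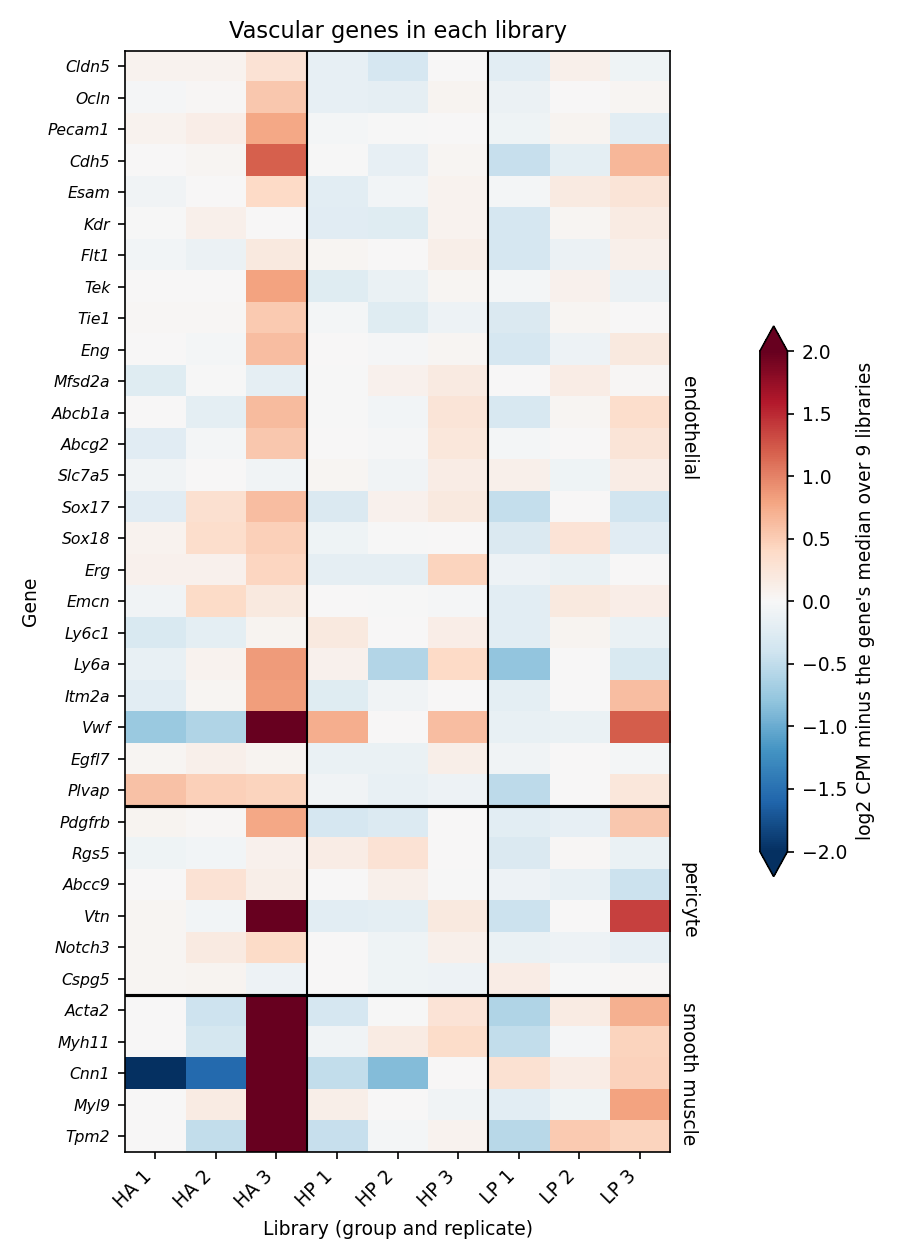
Level of 35 vascular genes (rows) in 9 libraries (columns), as log2 CPM minus the median of the gene over the libraries, with colours ending at -2 and 2. HA replicate 3 is the highest library for most endothelial genes and for every smooth muscle gene, while Plvap is high in all 3 HA libraries.

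Among the libraries, HA replicate 3 was the highest of the 9 for 25 of the 36 genes (69.4%), compared with 18.2% of all genes tested. It was the highest for 16 of 24 endothelial, 3 of 6 pericyte and 6 of 6 smooth muscle genes. LP replicate 1 was the lowest for 17 of the 36 genes. The summed endothelial level was 662, 700 and 964 CPM in HA, 678, 656 and 750 CPM in HP, and 618, 701 and 782 CPM in LP. The 3 groups overlapped on this sum, and LP replicate 3, the other library high in meningeal markers, was the second highest of the 9. In bulk RNA a smaller or larger number of vessel cells and a lower or higher RNA level per cell cannot be told apart.

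Plvap had the smallest p of the 35 genes in HA against HP, and its HA libraries lay above those of both other groups. It encodes the protein of the diaphragms that span endothelial fenestrae and caveolae, which is kept low in barrier capillaries and present in the fenestrated capillaries of the median eminence. Plvap (ENSMUSG00000034845, chr8:71497765-71511752, minus strand, GRCm38) stood at 20.9, 19.4 and 19.0 CPM in HA replicates 1 to 3, at 13.2, 12.6 and 12.9 CPM in HP and at 9.64, 13.9 and 16.3 CPM in LP. The nearest HP library was 5.82 CPM and the nearest LP library 2.73 CPM below the HA range, and HA replicate 3 was the lowest of the HA libraries. The log2 fold change was 0.61 (SE 0.158) in HA against HP, with an unadjusted p of 0.00297 and an adjusted p of 0.84 (edgeR, Benjamini-Hochberg), so the difference did not pass over all genes. In HA against LP it was 0.57 (SE 0.157), with an adjusted p of 0.645 by the same test. The estimate in HA against HP lay between 0.57 and 0.64 over 18 alternative settings, and the smallest adjusted p among them was 0.132. In HA against LP it ranged more widely over 17 settings. It was lowest, 0.38, without LP replicate 1 and highest, 0.77, without LP replicate 3 and HA replicate 3. HP and LP overlapped, with a log2 fold change of -0.04 (95% interval -0.40 to 0.31).

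The 5 junction genes had higher estimates in HA than in HP, all 5 also without HA replicate 3, but none was called. Cldn5, the main claudin of brain endothelial tight junctions (chr16:18776847-18778262, plus strand), stood at 61.0, 60.8 and 70.3 CPM in HA, at 51.7, 45.8 and 57.8 CPM in HP and at 49.8, 61.8 and 54.7 CPM in LP. HA lay above HP without overlap, while LP overlapped both. Its log2 fold change in HA against HP was 0.31 (SE 0.103, unadjusted p = 0.0135, adjusted p = 0.84, edgeR with Benjamini-Hochberg), and 0.24 without HA replicate 3. Pecam1, an adhesion molecule of endothelial contacts, stood at 23.8, 24.8 and 38.8 CPM in HA, at 22, 22.5 and 22.6 CPM in HP and at 21.4, 23.6 and 19.6 CPM in LP. HA lay above both other groups without overlap, but HA replicates 1 and 2 exceeded them by little, and the estimate in HA against HP was 0.38 with all libraries and 0.12 without HA replicate 3. Cdh5, which encodes the adherens junction protein VE-cadherin, stood at 15.5, 15.9 and 35.4 CPM in HA, at 15.4, 13.8 and 16.0 CPM in HP and at 11.3, 13.5 and 24.6 CPM in LP. Its high values were those of HA replicate 3 and LP replicate 3, and its estimate in HA against HP was 0.56 with all libraries and 0.06 without HA replicate 3. Ocln, the tight junction protein occludin, ranged from 10.9 to 17.9 CPM over the 9 libraries, and Esam, an adhesion molecule at endothelial tight junctions, from 14.3 to 21.9 CPM. Both had their highest value in HA replicate 3, and their groups overlapped in all 3 comparisons.

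Receptor genes other than Tie1 overlapped between groups in all 3 comparisons. Tie1, a receptor tyrosine kinase that modulates angiopoietin signalling, stood at 14.3, 14.3 and 20.1 CPM in HA, at 13.7, 11.9 and 13 CPM in HP and at 11.4, 14.4 and 14 CPM in LP. HA lay above HP without overlap, by 0.571 CPM between the nearest libraries, and the log2 fold change was 0.34 (SE 0.151, adjusted p = 0.84, edgeR with Benjamini-Hochberg) and 0.16 without HA replicate 3. Tek, the angiopoietin receptor TIE2, stood at 13.4, 13.5 and 23.4 CPM in HA, at 11.3, 12.2 and 13.7 CPM in HP and at 13.1, 14.2 and 12.4 CPM in LP. HA replicate 3 lay far above the other 8 libraries, which covered 11.3 to 14.2 CPM in all groups. Kdr, the main VEGF receptor of endothelial cells, ranged from 27.1 to 38.2 CPM, and Flt1, a VEGF receptor that also acts as a decoy, from 51.2 to 73.7 CPM. For Kdr the estimates were 0.16 in HA against HP and -0.10 in HP against LP, with 95% intervals of -0.12 to 0.44 and -0.38 to 0.18. Eng, a co-receptor for TGF-beta family ligands, stood at 28.8, 28.0 and 44.4 CPM in HA, at 28.8, 28.4 and 29.5 CPM in HP and at 22.7, 26.8 and 33.1 CPM in LP, so that HA and HP differed in HA replicate 3 alone.

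Estimates of the transporter genes were mixed in direction. Mfsd2a encodes the transporter that brings docosahexaenoic acid into the brain as lysophosphatidylcholine and that holds back transcytosis at the barrier (chr4:122946850-122961188, minus strand). It stood at 51.1, 60.2 and 53.8 CPM in HA, at 60.4, 64.6 and 69.0 CPM in HP and at 60.7, 67.6 and 61.9 CPM in LP. Every HA library lay below every HP and LP library, though HA replicate 2 was 0.181 CPM below HP replicate 1. The log2 fold change was -0.23 (SE 0.075, unadjusted p = 0.0112, adjusted p = 0.84) in HA against HP and -0.20 (SE 0.075, adjusted p = 0.756) in HA against LP, by edgeR with Benjamini-Hochberg adjustment. Without HA replicate 3 these estimates were -0.22 and -0.19. Abcg2, the efflux pump BCRP, stood at 14.9, 17.0 and 25.3 CPM in HA, at 17.6, 17.3 and 20.4 CPM in HP and at 17.1, 17.5 and 21.0 CPM in LP. HA held the 2 lowest values and the highest one, and the estimate in HA against HP was 0.04 with all libraries and -0.21 without HA replicate 3. Abcb1a, which encodes the efflux pump P-glycoprotein of the rodent barrier, ranged from 27.1 to 52.6 CPM, with estimates of 0.12 and, without HA replicate 3, -0.16 in HA against HP. A stretch of 327 bases of an Abcb1a transcript matched Abcb1b at 97.9% identity, so a small part of its reads could be shared. Slc7a5, the large neutral amino acid transporter LAT1, varied least among the 4, between 93.0 and 109 CPM, and its 95% interval in HA against HP was -0.24 to 0.07. All 4 estimates were lower in HA than in HP without HA replicate 3, while 2 of the 4 were lower with it.

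The transcription factor genes Sox17, Sox18 and Erg, which act in vessel formation and endothelial identity, were each under 14 CPM in every library. Sox18 stood at 9.85, 11.9 and 13 CPM in HA, at 8.79, 9.33 and 9.36 CPM in HP and at 7.70, 11.3 and 7.96 CPM in LP. HA lay above HP without overlap and overlapped LP, and the log2 fold change in HA against HP was 0.34 (SE 0.163, adjusted p = 0.84, edgeR with Benjamini-Hochberg). Sox17 stood at 7.18, 10.5 and 13 CPM in HA, at 6.90, 8.92 and 9.62 CPM in HP and at 6.09, 8.43 and 6.45 CPM in LP, with a log2 fold change of 0.55 (SE 0.224) in HA against LP that was 0.34 without HA replicate 3. Erg ranged from 5.79 to 8.94 CPM, and HP replicate 3 was its highest library. With all libraries, all 3 genes had higher estimates in HA than in HP and in HP than in LP, and none was called. In HP against LP the sign of Sox18 changed in 3 of 17 alternative settings. Its estimate there was -0.05 without LP replicate 3 and at its lowest, -0.07, without LP replicate 1. The sign of Erg in HP against LP changed in 1 setting, at -0.10 without HP replicate 3.

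Of the 24 endothelial genes, 1 was at least 2 times as high in HA replicate 3 as in every other library, and it is among the genes of surface and secreted proteins. Vwf encodes von Willebrand factor, a clotting protein stored in endothelial cells and most abundant in larger vessels, veins above all. It stood at 6.12, 6.74 and 77.3 CPM in HA, at 16.9, 10.2 and 15.7 CPM in HP and at 9.16, 9.33 and 23.5 CPM in LP. HA held the 2 lowest values of the 9 and the highest, which was 3.29 times that of LP replicate 3. The log2 fold change in HA against HP was 1.07 (SE 0.842, adjusted p = 0.854, edgeR with Benjamini-Hochberg), and without HA replicate 3 it was -1.15 with an adjusted p of 0.865. Without HA replicate 3 and LP replicate 3 the adjusted p of this lower estimate was 0.118. Itm2a, a membrane protein gene high in brain endothelium, stood at 62.3, 74.1 and 129 CPM in HA, at 61.2, 68.7 and 72.1 CPM in HP and at 62.9, 72.4 and 111 CPM in LP. It was high in HA replicate 3 and LP replicate 3, and the other 7 libraries lay between 61.2 and 74.1 CPM.

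Ly6c1 and Ly6a encode small membrane-anchored proteins of mouse endothelial cells. Ly6c1 stood at 35.0, 37.7 and 44.8 CPM in HA, at 49.1, 43.0 and 46.9 CPM in HP and at 37.3, 44.9 and 39.4 CPM in LP. HA replicates 1 and 2 lay below all HP libraries and replicate 3 within their range, and the log2 fold change in HA against HP was -0.24 (SE 0.101, unadjusted p = 0.0369, adjusted p = 0.84, edgeR with Benjamini-Hochberg). Ly6c1 shares 822 bases at 97.6% identity with Ly6c2, whose mean count was 5.44 where that of Ly6c1 was 818, so its counts are uncertain by a small amount. Ly6a ranged from 7.74 to 24.1 CPM, with the highest value in HA replicate 3. Emcn, a sialomucin of capillary and venous endothelium, ranged from 5.31 to 7.97 CPM. Egfl7, a secreted regulator of vessel assembly, ranged from 19.0 to 22.6 CPM. Its HA values of 21.5, 22.4 and 21.6 CPM lay above its LP values of 19.8, 20.9 and 20.4 CPM, with a log2 fold change of 0.10 (95% interval -0.09 to 0.28).

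**Figure D3:**
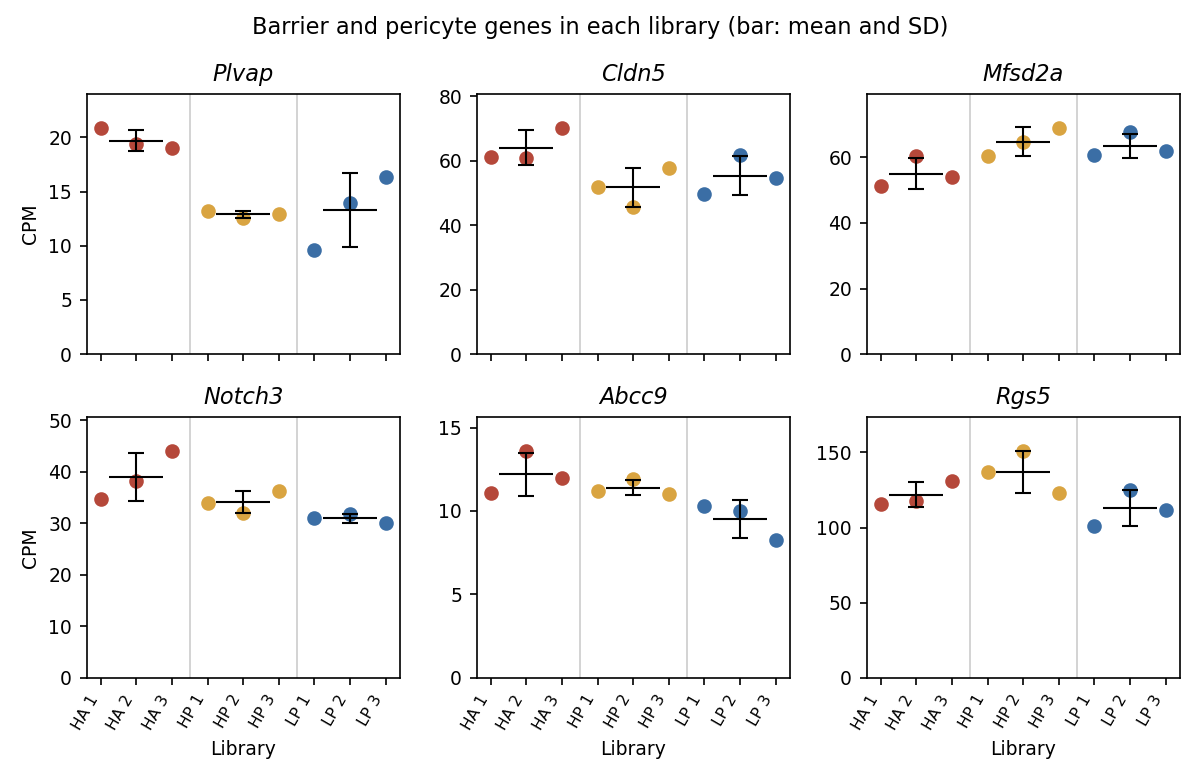
CPM (y axis, from 0) of 3 endothelial and 3 pericyte genes in each library (points, HA red, HP orange, LP blue), with the mean and SD of each group of 3 as black bars. Plvap lies at 19.0 to 20.9 CPM in HA and at 9.64 to 16.3 CPM in the other groups, Mfsd2a is lowest in HA, and Notch3 and Abcc9 are lowest in LP.

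Of the pericyte genes, Abcc9 and Notch3 had all HA and all HP libraries above all LP libraries. Notch3 encodes the Notch receptor of mural cells (chr17:32120820-32166880, minus strand). It stood at 34.7, 38.2 and 44.0 CPM in HA, at 33.9, 32.0 and 36.3 CPM in HP and at 30.9, 31.7 and 30.1 CPM in LP. LP was the lowest group without overlap, with HP replicate 2 at 0.339 CPM above LP replicate 2, while HA and HP overlapped. The log2 fold change was 0.34 (SE 0.087, unadjusted p = 0.0031, adjusted p = 0.645) in HA against LP and 0.14 (SE 0.087, adjusted p = 0.872) in HP against LP, by edgeR with Benjamini-Hochberg adjustment. In HA against LP it was 0.24 without HA replicate 3, and 0.33 and 0.35 without LP replicate 1 and LP replicate 2, the libraries high in striatal markers. Leaving out either one keeps the other in the LP group, so these fits cannot show whether the estimate depends on that difference. The same holds for Abcc9, Rgs5 and Higd1b below. On the opposite strand Gm17276 shares 6.03% of the exon bases of Notch3, at a mean of 71.8 counts against 675, and without strand the counts of this pair are uncertain.

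Abcc9 encodes SUR2, the sulphonylurea receptor subunit of the potassium channel of pericytes and smooth muscle. Its values were 11.1, 13.6 and 12 CPM in HA, 11.2, 11.9 and 11 CPM in HP, and 10.3, 10.0 and 8.23 CPM in LP. The lowest library was LP replicate 3, and the log2 fold changes were 0.36 (SE 0.121, adjusted p = 0.737) in HA against LP and 0.26 (SE 0.121, adjusted p = 0.82) in HP against LP, by edgeR with Benjamini-Hochberg adjustment. Without LP replicate 3 they were 0.27 and 0.16, without LP replicate 1 they were 0.42 and 0.32, and without LP replicate 2 they were 0.40 and 0.30. Rgs5, a regulator of G protein signalling that marks pericytes, was the vascular gene with an unadjusted p under 0.05 in HP against LP. It stood at 116, 118 and 131 CPM in HA, at 137, 151 and 123 CPM in HP and at 101, 125 and 112 CPM in LP. HP replicate 3 overlapped LP replicate 2, and the log2 fold change in HP against LP was 0.28 (SE 0.09, unadjusted p = 0.0102, adjusted p = 0.757, edgeR with Benjamini-Hochberg). Leaving out LP replicate 1 gave 0.21, and leaving out LP replicate 2 gave 0.37.

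Pdgfrb and Vtn were highest in the libraries high in meningeal markers. Pdgfrb, the receptor through which endothelial PDGF-B recruits pericytes and which fibroblasts also express, stood at 23.5, 23.0 and 38.6 CPM in HA, at 18, 18.7 and 22.6 CPM in HP and at 19.6, 20.2 and 32.8 CPM in LP. HA lay above HP without overlap, by 0.456 CPM between the nearest libraries, and the log2 fold change was 0.52 (SE 0.239, adjusted p = 0.84, edgeR with Benjamini-Hochberg) and 0.24 without HA replicate 3. Vtn, the matrix protein vitronectin, which brain pericytes make in quantity, stood at 47.2, 44.3 and 200 CPM in HA, at 39.5, 40.1 and 52.4 CPM in HP and at 34.1, 45.9 and 118 CPM in LP. The other 7 libraries lay between 34.1 and 52.4 CPM, and the estimate of 1.14 in HA against HP was 0.06 without HA replicate 3. Cspg5 varied little, at 303, 307 and 274 CPM in HA, 295, 279 and 276 CPM in HP and 327, 293 and 300 CPM in LP, and HA replicate 3 was its lowest library. Summed over the 5 pericyte genes without Cspg5, the level was 232, 237 and 426 CPM in HA, 240, 254 and 245 CPM in HP, and 196, 233 and 301 CPM in LP. The part of the meningeal signal in these values was not tested.

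HA replicate 3 stood further apart in smooth muscle genes than in nearly all other genes. Of the 5 tested, 5 were at least 2 times as high in HA replicate 3 as in every other library, which held for 0.73% of all genes tested, and 4 were at least 4 times as high, which held for 0.0798%. Acta2, smooth muscle alpha-actin (ENSMUSG00000035783, chr19:34241090-34255336, minus strand), stood at 8.75, 6.58 and 116 CPM in HA, at 6.96, 8.71 and 10.6 CPM in HP and at 5.75, 9.85 and 14.3 CPM in LP. HA replicates 1 and 2 lay within the range of the other groups, and replicate 3 was 8.08 times as high as LP replicate 3, the next library. The log2 fold change in HA against HP was 2.31 (SE 0.927, unadjusted p = 0.0314, adjusted p = 0.84, edgeR with Benjamini-Hochberg) and -0.18 without HA replicate 3.

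Smooth muscle contractile genes are known targets of serum response factor, which binds the CArG box. The promoters of Acta2 and Myl9 are shown, which of the 4 smooth muscle genes with a window are those that held a match. Cnn1 and Tpm2 had windows too and were also high in HA replicate 3, so the 2 shown are not a sample of such genes. Windows of 250 bases before to 50 after the RefSeq start were taken from GRCm38.p6, for 23 of the 36 genes and 4 of the 6 smooth muscle genes. Capitals mark a CArG box, or a box in which 1 of the 6 middle bases is not A or T. The pattern was searched on both strands, and no box overlaps another in these windows.
Acta2, chr19:34255324-34255623, minus strand: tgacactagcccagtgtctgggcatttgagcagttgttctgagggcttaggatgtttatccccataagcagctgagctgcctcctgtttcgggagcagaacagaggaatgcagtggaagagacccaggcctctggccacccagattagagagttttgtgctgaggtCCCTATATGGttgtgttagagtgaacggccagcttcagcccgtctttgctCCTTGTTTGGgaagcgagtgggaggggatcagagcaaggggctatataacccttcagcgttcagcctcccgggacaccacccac
Myl9, chr2:156775214-156775513, plus strand: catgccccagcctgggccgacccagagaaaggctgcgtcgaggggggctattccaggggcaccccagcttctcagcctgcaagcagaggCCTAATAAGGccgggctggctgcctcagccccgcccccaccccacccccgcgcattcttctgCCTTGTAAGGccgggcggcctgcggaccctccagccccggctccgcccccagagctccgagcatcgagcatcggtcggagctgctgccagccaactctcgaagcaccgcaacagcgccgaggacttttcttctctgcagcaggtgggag
Acta2 held 2 such near boxes, at 84 and 34 bases before the start, and Myl9 held 1 full CArG box at 161 bases and 1 near box at 99 bases before the start. Neither pattern was in the windows of Cnn1 and Tpm2. A full box was in 1.63% of 32851 promoter windows, and a full or near box was in 9.98% of them. By gene, counting 27025 genes by any of their windows, the shares were 1.81% and 11.3%. Among vascular genes with a window, a full or near box was found in 2 of 4 smooth muscle, 5 of 15 endothelial and 0 of 4 pericyte genes. These are matches of letters and were not tested as binding sites.

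Myh11, the smooth muscle myosin heavy chain and the gene most particular to that cell type in common use, stood at 6.72, 5.29 and 58.6 CPM in HA, at 6.4, 7.52 and 8.68 CPM in HP and at 4.77, 6.63 and 9.14 CPM in LP. Myl9, a regulatory myosin light chain, stood at 10.2, 11.4 and 56.7 CPM in HA, at 11.1, 10.2 and 9.73 CPM in HP and at 8.77, 9.62 and 17.8 CPM in LP. In both genes the groups overlapped, with HA replicate 3 alone far above the rest and LP replicate 3 next. Tpm2, a tropomyosin of muscle, stood at 3.08, 2.19 and 19.4 CPM in HA, at 2.23, 3.01 and 3.24 CPM in HP and at 2.09, 4.41 and 4.19 CPM in LP. Log2 fold changes in HA against HP were 1.64 (SE 0.764) for Myh11, 1.34 (SE 0.585) for Myl9 and 1.53 (SE 0.706) for Tpm2, and all 3 had an adjusted p of 0.84 by edgeR (Benjamini-Hochberg). Without HA replicate 3 they were -0.32, 0.07 and -0.09.

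Cnn1 and Tagln were low. Cnn1, the contractile regulator calponin, stood at 0.0921, 0.16 and 6.07 CPM in HA, at 0.334, 0.259 and 0.471 CPM in HP and at 0.584, 0.521 and 0.645 CPM in LP. These are 2, 3 and 114 counts in HA, 6, 5 and 9 counts in HP, and 12, 11 and 12 counts in LP. HP lay below LP without overlap, HA replicates 1 and 2 lay below both, and replicate 3 was 9.41 times as high as the next library. The log2 fold change was -0.71 (SE 1.344, adjusted p = 0.961) in HP against LP and 2.54 (SE 1.216, adjusted p = 0.84) in HA against HP, by edgeR with Benjamini-Hochberg adjustment, and the estimate in HA against HP was -1.46 without HA replicate 3. Tagln, which encodes transgelin, had 6, 5 and 13 counts in HA, 6, 3 and 0 in HP, and 3, 3 and 8 in LP. Of its exon bases 67.9% lie opposite exons of Gm48529 or Pcsk7 on the other strand, so its counts are uncertain, and a gene usually high in smooth muscle was here the lowest of the list per length.

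**Figure D4:**
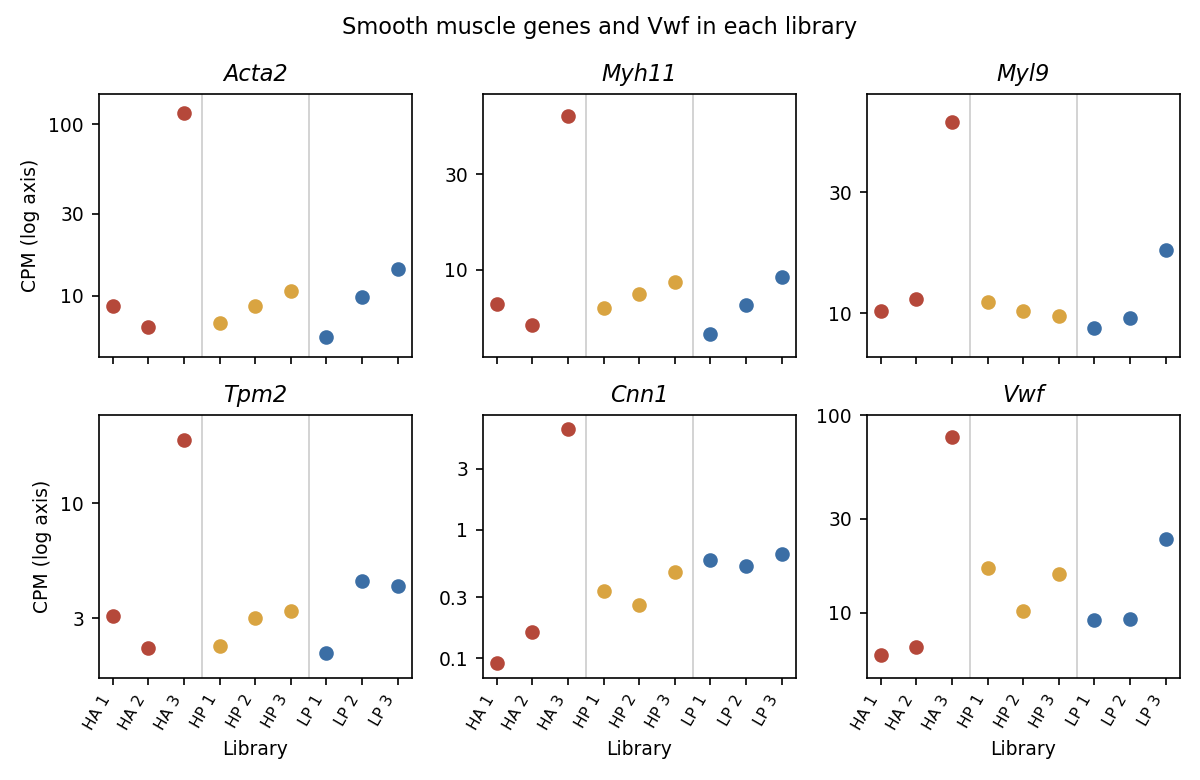
CPM on a log axis (y) of 5 smooth muscle genes and Vwf in each library (points, HA red, HP orange, LP blue). HA replicate 3 is 3.18 to 9.41 times as high as the next library in the 6 panels, while HA replicates 1 and 2 lie within or below the range of HP and LP.

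Summed over the 6 smooth muscle genes, the level was 29.1, 25.9 and 257 CPM in HA, 27.3, 29.8 and 32.7 CPM in HP, and 22.1, 31.2 and 46.6 CPM in LP. The 2 libraries with the highest sums, HA replicate 3 and LP replicate 3, were also those with the highest sums of meningeal fibroblast and perivascular macrophage markers, at 1697 and 944 CPM and at 71.7 and 49.5 CPM. Within that pair the 2 kinds of signal differed in proportion, since the smooth muscle sum was 257 CPM against 46.6 CPM. The part of the meningeal signal in the smooth muscle values was not tested. Without both libraries the smooth muscle median was -0.137 in HA against HP and 0.166 in HP against LP, with 4 genes tested. HP replicate 3, which shares its title code Hg13 with HA replicate 3, had 32.7 CPM for the smooth muscle sum and 344 CPM for the meningeal sum.

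**Figure D5:**
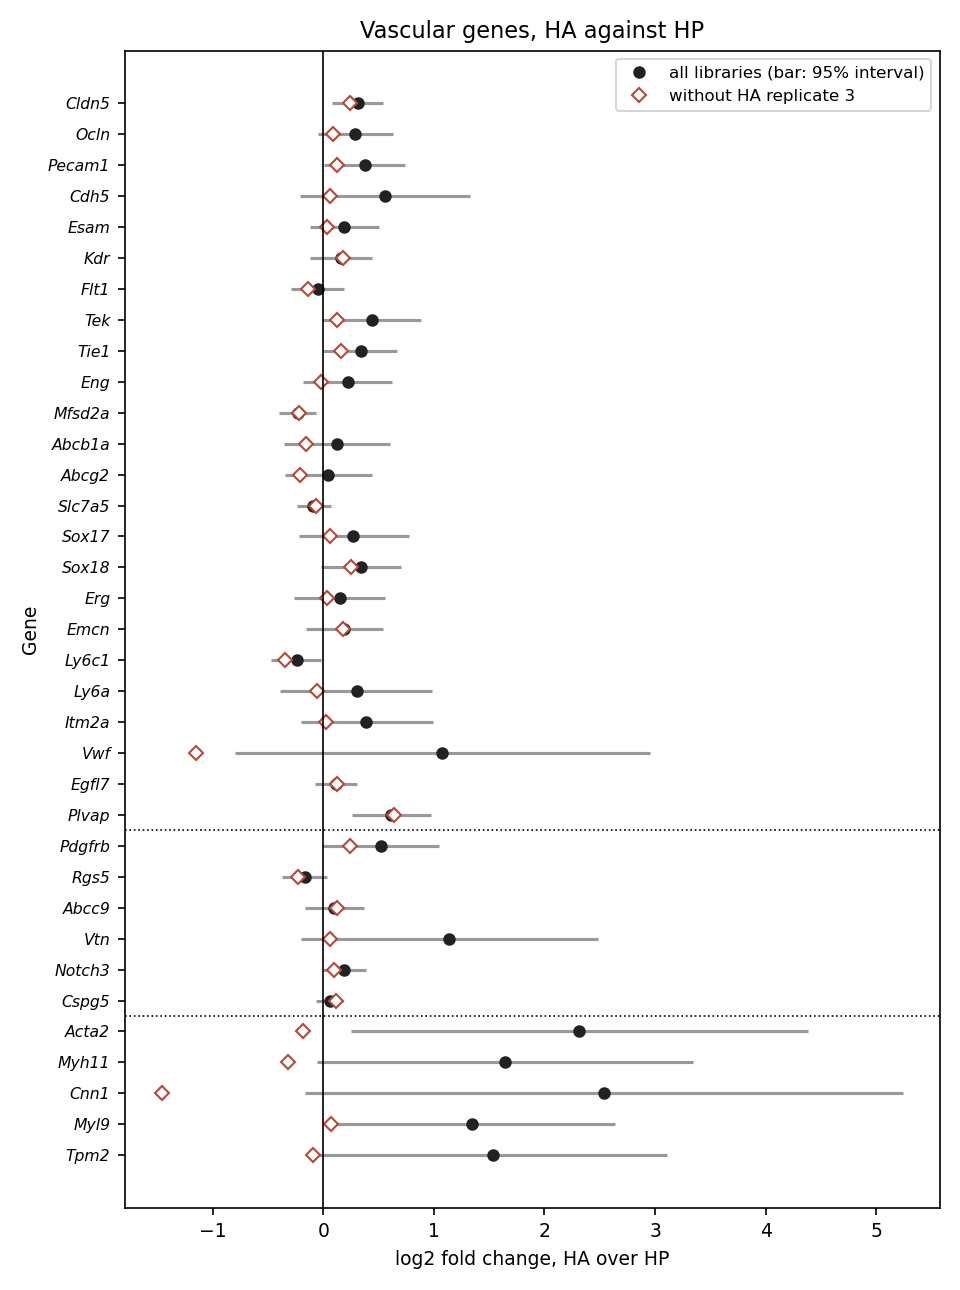
Log2 fold change of HA over HP (x axis) for 35 vascular genes (y axis), with all libraries (black points, bars 95% interval) and without HA replicate 3 (open diamonds). Smooth muscle genes, Vtn and Vwf shift to near 0 or below it without HA replicate 3, while Plvap stays between 0.61 and 0.64.

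Other genes of the same pathways were taken from lists beside the 36, and 0 of the 99 tested genes on the 6 lists below were called in any comparison (edgeR, Benjamini-Hochberg). An unadjusted p under 0.05 was reached by 13 of the 99 in HA against HP, 10 in HP against LP and 11 in HA against LP, where 5.42%, 6.12% and 6.51% of all genes tested reached it. The numbers without HA replicate 3 were 7, 13 and 7 of 99, where 5.26%, 7.1% and 5.36% did so. The 99 genes had 81 higher and 18 lower estimates in HA against HP, 32 and 67 in HP against LP, and 77 and 22 in HA against LP. These directions changed with the libraries used. With HA replicate 3 left out there were 56 higher and 43 lower in HA against HP, and 43 higher and 56 lower in HA against LP. Without LP replicate 3 and HA replicate 3 there were 54 higher and 45 lower in HP against LP, and 69 higher and 30 lower in HA against LP. Of 22 genes of angiogenic signalling, 20 had higher and 2 lower estimates in HA than in HP, and without HA replicate 3 there were 15 and 7. Nrp2, a co-receptor for VEGF and semaphorins, had the smallest p of that list. It stood at 112, 108 and 108 CPM in HA, at 102, 106 and 104 CPM in HP and at 116, 120 and 114 CPM in LP. The 3 groups did not overlap, in the order HP, HA and LP from low to high, and the log2 fold change in HP against LP was -0.17 (SE 0.038, unadjusted p = 0.00134, adjusted p = 0.491, edgeR with Benjamini-Hochberg). S1pr1, the sphingosine-1-phosphate receptor of endothelium, which astrocytes also express, ranged from 91.7 to 111 CPM.

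Wnt signals from neural cells induce and keep the barrier, and 11 of 15 genes of that pathway had higher and 4 lower estimates in HA than in HP, which became 8 and 7 without HA replicate 3. Ndp, the ligand norrin, stood at 7.37, 8.98 and 7.08 CPM in HA, at 5.51, 6.84 and 5.65 CPM in HP and at 6.77, 6.82 and 6.56 CPM in LP. HA lay above both other groups without overlap, and the log2 fold change in HA against HP was 0.38 (SE 0.139, adjusted p = 0.84, edgeR with Benjamini-Hochberg). Sox7, a relative of Sox17 and Sox18, stood at 2.03, 1.92 and 2.93 CPM in HA, at 2.73, 3.32 and 3.03 CPM in HP and at 1.41, 2.32 and 1.67 CPM in LP. HP lay above LP without overlap, and the estimated log2 difference was 0.75 (SE 0.245, adjusted p = 0.758, edgeR with Benjamini-Hochberg).

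Of 18 further barrier transport genes, 13 had higher and 5 lower estimates in HA than in HP, and 9 and 9 without HA replicate 3. Slc38a5, a glutamine and small amino acid transporter, had the smallest p of that list. It stood at 6.31, 6.26 and 9.69 CPM in HA, at 4.62, 3.99 and 3.66 CPM in HP and at 4.87, 6.73 and 6.77 CPM in LP. HP was the lowest group without overlap and HA and LP overlapped. The log2 fold changes were 0.86 (SE 0.212, unadjusted p = 0.00227, adjusted p = 0.84) in HA against HP and -0.58 (SE 0.212, adjusted p = 0.792) in HP against LP, by edgeR with Benjamini-Hochberg adjustment. Slco1a4, an organic anion transporter of the rodent barrier, stood at 27.6, 29.2 and 32.7 CPM in HA, at 28.0, 28.6 and 30.3 CPM in HP and at 34.1, 39.7 and 32.7 CPM in LP, where HP lay below LP without overlap and the estimate was -0.29 (SE 0.089, adjusted p = 0.727, edgeR with Benjamini-Hochberg).

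Among 15 junction and basement membrane genes, 11 had higher and 4 lower estimates in HA than in HP, and 8 and 7 without HA replicate 3. Col4a1, a collagen of the vascular basement membrane, stood at 121, 128 and 191 CPM in HA, at 110, 109 and 122 CPM in HP and at 103, 110 and 134 CPM in LP, with the highest values again in HA replicate 3 and LP replicate 3. Of 19 tested further mural genes, 16 had higher and 3 lower estimates in HA than in HP, and 11 and 8 without HA replicate 3. In HP against LP 7 had higher and 12 lower estimates, and 13 and 6 without LP replicate 3 and HA replicate 3. In HA against LP these numbers were 16 and 3, and 7 and 12 without HA replicate 3. Higd1b and Kcnj8, which mark brain pericytes, had the smallest p of that list, both in HA against LP. Higd1b stood at 3.27, 4.01 and 3.41 CPM in HA, at 3.23, 3.16 and 3.14 CPM in HP and at 2.44, 2.56 and 2.31 CPM in LP. As for Abcc9 and Notch3, all HA and HP libraries lay above all LP libraries. Pericyte genes did not share this order as a set. Pdgfrb and Vtn had estimates of -0.29 and -0.58 in HP against LP, and -0.01 and 0.14 without LP replicate 3. For Higd1b the log2 fold change in HA against LP was 0.55 (SE 0.156, unadjusted p = 0.00561, adjusted p = 0.645, edgeR with Benjamini-Hochberg). It was 0.51 to 0.58 with single LP libraries left out. Kcnj8, which encodes the pore subunit that pairs with the product of Abcc9, stood at 5.25, 7.11 and 4.26 CPM in HA, at 3.90, 4.41 and 4.81 CPM in HP and at 3.41, 3.98 and 3.87 CPM in LP. HA lay above LP without overlap and HP overlapped both.

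Of 10 tested genes of fenestrated, venous or arterial endothelium, 10 had higher estimates in HA than in HP with all libraries, and 5 had higher and 5 lower estimates without HA replicate 3. Esm1, a secreted proteoglycan of endothelial tip cells and of fenestrated vessels, stood at 0.921, 0.642 and 6.02 CPM in HA, at 0.557, 0.985 and 0.575 CPM in HP and at 0.731, 0.853 and 1.40 CPM in LP. Gja5, the arterial gap junction protein connexin 40, stood at 2.21, 1.23 and 5.27 CPM in HA, at 1.5, 1.45 and 1.52 CPM in HP and at 0.925, 1.33 and 1.56 CPM in LP. Both were highest in HA replicate 3, and neither showed the separation of all 3 HA libraries that Plvap did.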

How the data were processed

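The authors deposited raw counts, whole numbers of reads per gene, in 1 table. In another the authors deposited FPKM values, which are divided by gene length and library size. The submitters' processing notes name featureCounts 1.5.0-p3, HISAT2 2.0.5 and DESeq2 1.16.1 as tools and mm9 as build. The coordinates in the count table match the start and end in GENCODE's GRCm38 annotation for 53499 of 54409 common identifiers (98.3%), and they are read as GRCm38. Libraries were made from 3 µg of total RNA with a NEBNext Ultra kit, per the labels' protocols, and strand is not stated, so overlapping genes on opposite strands cannot be told apart.

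Counts of all 9 libraries were fitted by edgeR's quasi-likelihood method (version 4.0.16, R 4.3.3), with group as the only term, filterByExpr (17546 of 54532 genes) and TMM scaling. The F test was two-sided, with Benjamini-Hochberg adjustment over all genes tested at 0.05 and 6 residual degrees of freedom. SE stands for standard error, taken as the absolute log2 fold change over the root of F. Library sizes after TMM scaling were used for CPM. The biological coefficient of variation was 14.1%, and total counts of 18226924 to 21823961 limit the precision of low genes such as Cnn1 and Tagln. Deposited FPKM values were used to compare levels between genes. Near copies were searched with blastn 2.17.0, promoter windows come from RefSeq, and the fit was tested on simulated data.

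The 36 genes and the lists were chosen with earlier results of these data known. All 36 are given; of each other vascular list the called genes and the 2 of smallest p are named, and of marker lists genes of high mean CPM. Alternatives were DESeq2 1.42.0, limma-voom (limma 3.58.1), DESeq2 size factors, library totals, no count filter, 2 groups only, a replicate block, the title code as a term and leaving out libraries. Replicate pairs of a group differed by more than sampling noise, with a chi-square of 4.73 to 25.83 per degree of freedom. Deviations from the group mean were correlated across genes between same-numbered replicates. For HA and LP r was 0.256, 0.144 and 0.486, for HA and HP 0.082, 0.004 and 0.118, and for HP and LP 0.137, -0.028 and 0.159. HA replicate 2 with LP replicate 1 (0.251) and HA replicate 1 with LP replicate 2 (0.182) also had positive values. The deviations within a group sum to 0, so an outlying replicate 3 in both HA and LP can by itself raise r among replicates 1 and 2. These values therefore cannot show a pairing by replicate number. Same-numbered libraries of HA and HP do have matching title codes, but what the codes stand for is not given. Since replicates 1 and 2 have the same code, the code cannot tell which of them would pair. No label links an LP library to one of HA or HP.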

Additional observations from a re-analysis of the deposited data

How the results depend on the processing

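No vascular gene was called under any setting run, and the 93 of 1812 values of single genes under alternatives that changed sign were all uncalled. Genes called among all tested were 2 in HP against LP, 2 in HA against HP and 0 in HA against LP. In HP against LP the number was 1 with library totals, 53 with no count filter, 32 with DESeq2, 4 with 2 groups only, 5 with 2 groups only and the replicate block, 37 without LP replicate 3 and HA replicate 3, and 1 to 21 leaving out single libraries. In HA against HP it was 5 with no count filter, 8 with DESeq2, 10 without both libraries and 1 to 9 leaving out single ones. In HA against LP it was 41 with no count filter, 27 with DESeq2, 1 with 2 groups only, 2 with 2 groups only and the replicate block, 23 without both libraries and 0 to 14 leaving out single ones. In HA against HP it was 2 both with 2 groups only and with the replicate block added. The largest numbers without 1 library came without LP replicate 3 (21 in HP against LP, 14 in HA against LP) and without HA replicate 3 (9 in HA against HP). The smooth muscle median moved with the same libraries. It was 0.165 in HP against LP without LP replicate 3 and 0.166 without both, -0.185 in HA against HP without HA replicate 3 and -0.137 without both, and -0.372 in HA against LP without HA replicate 3 and 0.032 without both. Leaving out single libraries gave -0.461 to 0.165, -0.185 to 2.115 and -0.372 to 2.254 in the same order of comparisons. The pericyte median in HA against LP, with Cspg5 included, was 0.025 without HA replicate 3, and 0.025 to 0.377 over single libraries left out. Without HA replicate 3, an alternative chosen after seeing the data, the genes lower without overlap numbered 7 instead of 1 in HA against HP and 4 instead of 1 in HA against LP. Beyond the missing libraries themselves, the cause was not tested. The counts limit Cnn1, which failed the filter without both libraries, and Tagln.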

Other observations

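Over all 17546 genes tested, 14 were at least 4 times as high in HA replicate 3 as in every other library, a set chosen after its values were seen. The vascular genes among them were Cnn1, Acta2, Myh11 and Tpm2, and Lmod1, a leiomodin of smooth muscle, was also there at 8.04 CPM against at most 1.77 CPM elsewhere. Eln, which encodes elastin of the arterial wall, stood at 394 CPM against at most 92.0 CPM. Aoc3, an amine oxidase of smooth muscle and endothelium, stood at 7.88 CPM against at most 1.77 CPM. Matrix genes of connective tissue were there too, with Dpt (dermatopontin) at 9.05 CPM against at most 0.968 CPM, Mfap5 at 9.11 CPM against at most 1.4 CPM, and Cilp at 7.99 CPM against at most 1.11 CPM. Prg4, Igfbp6 and Esm1 reached 16.8, 39.8 and 6.02 CPM against at most 3.71, 8.98 and 1.4 CPM. The pituitary hormone gene Gh stood at 16.2 CPM against at most 2.53 CPM, while the sum of 8 pituitary markers was 69.1 CPM in HA replicate 3 and 31.5 to 54.8 CPM in the other libraries.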
